A study of Homo sapiens with 6 samples.

Results

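Open chromatin was examined in sorted human embryonic stem cells at 9 genes that regulate naive pluripotency and the germline, namely KLF4, KLF5, KLF17, TFCP2L1, ESRRB, PRDM14, DPPA3, PRDM1 and KIT. Each gene was given 1 window of the hg19 genome, and a region of open chromatin was a member when its midpoint lay inside a window. This rule, which used position and no measured value, gave 50 member regions of the 118556 regions in the deposited table. The windows ran from 30 kb (DPPA3) to 180 kb (ESRRB). A region was tied to a gene by position alone, and regions beside a gene may act on another one.

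All 6 libraries came from the human embryonic stem cell line WA09, cultured on Matrigel in mTeSR1, and the sample labels name no treatment. The study's general culture methods describe blebbistatin given before dissociation to single cells, without naming these samples. Cells were sorted on the surface antigens GCTM-2 and CD9 into a high population, GCTM-2highCD9highEPCAMhigh, which was also gated on EPCAM, and a mid population, GCTM-2midCD9mid, for which no EPCAM gate was named. The titles of the mid samples call them low. Each population had 3 biological replicates, assayed by FAST-ATAC, in which Tn5 transposase cuts and tags accessible DNA so that the reads counted in a region measure how open it is. The comparison asked whether accessibility at these genes differed between the cells with the highest levels of the stem cell antigens and those with intermediate levels. WA09 is a single cell line, so the spread between replicates holds no difference between donors, and whether the replicates were separate cultures was not stated.

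Human pluripotent cells grown in standard medium resemble the epiblast after implantation and are commonly called primed, while the naive state resembles the epiblast before implantation. KLF4, KLF5, KLF17, TFCP2L1 and ESRRB encode DNA-binding proteins that are expressed in naive cells or help to keep or reach that state, although ESRRB is better known for this role in the mouse than in the human. PRDM14 and PRDM1 encode PR-domain regulators needed for primordial germ cells, the precursors of eggs and sperm. DPPA3 is a protein of germ cells, oocytes and the early embryo that guards DNA methylation, and KIT is the receptor tyrosine kinase through which germ cells receive the KIT ligand.

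RefSeq promoter sequences, taken from a GRCh38.p14 table, were found for 8 of the 9 genes, and PRDM14 had no entry in it. Each sequence below is the 250 bases before an annotated start on the gene's own strand, shown because the genes differ widely in the base composition of their promoters. Of 12 promoters in the table, 5 are printed, 1 for each of 5 genes, and those of ESRRB, PRDM1 and KIT and the first KLF5 promoter are not. Capitals mark the GC box GGGCGG, or CCGCCC where it lies on the other strand, which is the motif bound by Sp1 and by many KLF proteins. They were not placed on the hg19 regions, since no position was converted between builds.
KLF4, chr9:107489770-107490019, minus strand: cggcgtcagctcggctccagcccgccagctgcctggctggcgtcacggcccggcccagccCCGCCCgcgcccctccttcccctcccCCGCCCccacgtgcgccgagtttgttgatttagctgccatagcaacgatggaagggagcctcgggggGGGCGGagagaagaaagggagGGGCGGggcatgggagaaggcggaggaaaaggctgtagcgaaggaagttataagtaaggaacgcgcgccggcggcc
KLF5, chr13:73058755-73059004, plus strand: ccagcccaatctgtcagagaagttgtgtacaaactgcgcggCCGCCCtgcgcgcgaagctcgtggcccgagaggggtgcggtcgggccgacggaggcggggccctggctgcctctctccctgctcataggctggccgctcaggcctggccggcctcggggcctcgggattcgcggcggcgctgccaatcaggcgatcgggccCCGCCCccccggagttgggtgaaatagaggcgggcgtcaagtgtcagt
KLF17, chr1:44118571-44118820, plus strand: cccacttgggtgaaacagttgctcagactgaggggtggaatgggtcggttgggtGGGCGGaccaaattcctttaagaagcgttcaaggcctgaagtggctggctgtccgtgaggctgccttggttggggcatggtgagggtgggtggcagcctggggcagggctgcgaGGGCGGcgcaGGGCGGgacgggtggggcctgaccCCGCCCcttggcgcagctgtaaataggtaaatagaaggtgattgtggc
TFCP2L1, chr2:121285203-121285452, minus strand: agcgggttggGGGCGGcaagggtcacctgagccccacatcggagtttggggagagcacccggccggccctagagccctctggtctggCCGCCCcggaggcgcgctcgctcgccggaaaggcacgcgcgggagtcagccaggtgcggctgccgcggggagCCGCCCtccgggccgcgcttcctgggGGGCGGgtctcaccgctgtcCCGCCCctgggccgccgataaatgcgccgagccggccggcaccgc
DPPA3, chr12:7711183-7711432, plus strand: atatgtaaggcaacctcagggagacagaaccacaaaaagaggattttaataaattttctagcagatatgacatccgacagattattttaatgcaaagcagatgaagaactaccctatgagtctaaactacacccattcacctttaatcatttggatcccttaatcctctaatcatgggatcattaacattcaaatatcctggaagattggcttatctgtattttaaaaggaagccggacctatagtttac

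A GC box stood in 42.6% of the 35114 promoters of the same length in the table, and the median promoter was 58% G or C with 11 CpG dinucleotides. The TFCP2L1 promoter was 76.8% G or C, with 32 CpG and 5 GC boxes. The KLF4 promoter was 69.2% G or C, with 25 CpG and 4 GC boxes. The second KLF5 promoter was 70.8% G or C, with 27 CpG and 2 GC boxes. These 3, and the KIT promoter at 76.4% and 34 CpG, lay above the upper quartile of all promoters for both measures, which was 68% and 23 CpG. The first KLF5 promoter was 40.8% G or C with 3 CpG and no GC box. The KLF17 promoter was 62.8% G or C and had 11 CpG, but held 4 GC boxes. The DPPA3 promoter was 35.6% G or C with 2 CpG and no GC box, below the lower quartile of 46.4% and 3 CpG. A motif match is a description of letters and was not tested as a binding site.

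Total counts in regions ran from 15486251 to 26225539 in the high libraries and from 23091028 to 29025274 in the mid libraries. The member regions took 0.0539% to 0.0593% of these counts in the high population (mean 0.0561% ± 0.00284 SD, n = 3) and 0.0510% to 0.0550% in the mid population (0.0526% ± 0.00216, n = 3), and the ranges overlapped. Levels are given as CPM, counts scaled to a common library size after TMM normalization. Regions near the stem cell genes POU5F1, SOX2 and NANOG, 9 in all, had mean levels of 3.60 to 70.7 CPM. They were wide, with a median of 1662 bp against 879 bp over all regions. In edgeR's test 1 of them, at POU5F1, was called higher in mid at an adjusted p under 0.01, as were 3.77% of all regions. Under 0.05 there were 3 (7.08% of all regions). All 9 had a fitted log2 fold change below zero, with a median of -0.39, where 53.5% of all regions were above zero. In 8 of them the mid library of every pair was higher (22.4% of all regions). The liver gene ALB had 1 region at 1.38 CPM, and the blood gene PTPRC had 8 regions at 1.06 to 23.7 CPM. Of these 8, 1 was called higher in high (2.32% of all regions) and 2 were under 0.05 (6.03%). The fitted value was above zero in 7 of them, with a median of 0.43. Transcription was not measured here.

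The windows differed in how their open chromatin was laid out. PRDM14 was the most densely marked of the 9 windows, with 8 regions in 70 kb, and ESRRB held the most regions, 12 in 180 kb. TFCP2L1 had 8 regions, KIT 6, KLF5 5, KLF4 4, KLF17 and PRDM1 3 each, and DPPA3 had 1. In the KLF4 window, 1 region of 6848 bp held 81.4% of the mean CPM. The most-read region held 76.5% of it at KIT, 71.1% at KLF5, 47.0% at PRDM14, 44.1% at PRDM1 and 41.4% at TFCP2L1. In the ESRRB window the most-read region held 15.3%, and reads were spread over regions along the whole window.

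Per kilobase of region, which allows levels to be compared between genes, the most-read KLF5 region was the highest of the 50 at 20.1 CPM per kb, ahead of the wide regions of PRDM14 at 13.9, KLF4 at 12.6 and KIT at 11. The most-read regions of TFCP2L1 (8.06), ESRRB (7.90), PRDM1 (6.16) and KLF17 (5.45) were lower, and the only DPPA3 region stood at 3.87 CPM per kb. The median was 4.85 CPM per kb over the members and 4.43 over all regions.

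At an adjusted p under 0.01, calls between the populations were about as frequent among these regions as over all regions. In edgeR's quasi-likelihood test with the replicate number as a block, over all regions and with Benjamini-Hochberg adjustment, 2 of the 50 member regions were called higher in the high population at an adjusted p under 0.01, and 2.32% of all regions were. Both lay in the KLF5 window. A single member region, in the KIT window, was called higher in the mid population, against 3.77% of all regions. Calls in either direction made up 3 of the 50 members and 6.09% of all regions, which are like shares. Under an adjusted p of 0.05, 2 members were higher in the high population (6.03% of all regions) and 2 in the mid population (7.08%), the addition being a region of the KLF4 window. At an unadjusted p under 0.05 there were 2 and 4, where all regions had 14.2% and 13.6%. When loess offsets against the mean level were used, 3 members were called higher in high and 2 higher in mid, and with total counts only 2 and 0. The other 47 were not called at 0.01, a result that does not show them to be equal. In such bulk samples, fewer cells with a region open and less accessibility in each cell cannot be told apart.

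**Figure D1:**
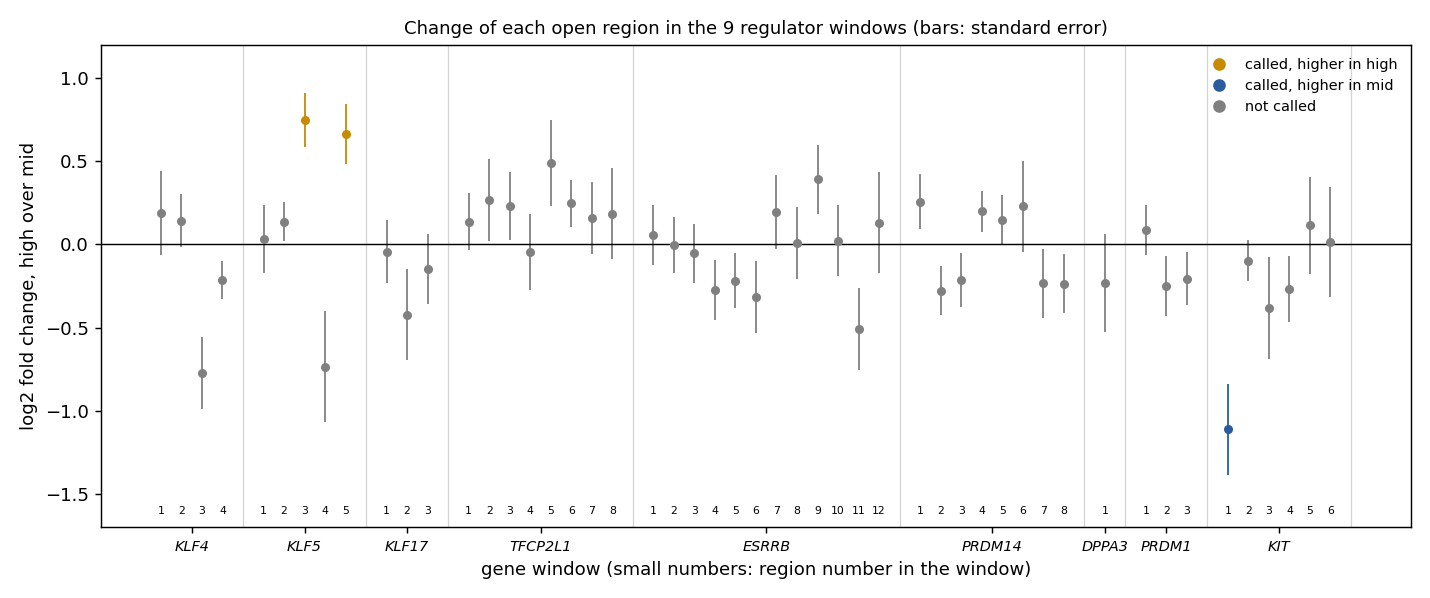
Log2 fold change of accessibility, high over mid, of each of the 50 member regions, grouped by gene window and numbered by position, with bars for the standard error. The called regions are KLF5 regions 3 and 5 on the high side and KIT region 1 on the mid side, and the fold changes run from -1.11 to 0.75.

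The member regions fell on both sides of zero. The fitted log2 fold change of high over mid was above zero in 26 and below it in 24, and the median was 0.01, beside 0.03 over all regions, of which 53.5% were above zero. All 3 same-numbered pairs were higher in the high population in 8 members (25.3% of all regions) and higher in the mid population in 11 (22.4%). Every high library lay above every mid library in 5 members (12.9% of all regions), and the opposite held in 5 (13.0%). In the remaining 40 the populations overlapped.

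KLF5, a zinc finger factor that supports self-renewal of pluripotent cells, held both regions called higher in the high population. Its region 3 (chr13:73649094-73650536), 15.9 kb from the most-read region between midpoints, had 19, 13.9 and 12.9 CPM in high replicates 1, 2 and 3, and 13.9, 6.71 and 7.51 CPM in mid replicates 1, 2 and 3. Replicate 1 was the highest in each population, so the groups overlapped, but the high library of each pair was above its mid partner. The log2 fold change was 0.75 with a standard error (SE) of 0.16 (1.68-fold, adjusted p = 0.00105, edgeR's quasi-likelihood test). Region 5 (chr13:73664177-73665158), 30.8 kb from the most-read region, had 12.5, 8.24 and 6.11 CPM in the high libraries and 8.83, 4.41 and 3.99 CPM in the mid libraries. Here too replicate 1 was the highest in each population and each pair was higher in high, while the groups overlapped, and its log2 fold change was 0.66 with a standard error of 0.18 (1.58-fold, adjusted p = 0.00935, edgeR's quasi-likelihood test).

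Both KLF5 calls rested on the pairing and on the second pair of libraries. Without the replicate block the adjusted p from edgeR was 0.0847 for region 3 and 0.196 for region 5, and without the pair of replicate 2 it was 0.166 and 0.262. Without the pair of replicate 3, region 5 was at 0.0198, and it stayed called in 7 of the 19 alternatives run, some of which nearly repeat each other. The log2 fold change stayed between 0.61 and 0.91 for region 3 and between 0.56 and 0.76 for region 5 in all alternatives run.

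The remaining KLF5 regions were not called in this fit. The most-read region (chr13:73632295-73635436, 3142 bp) had 75.2, 63.4 and 59.7 CPM in the high libraries and 70.3, 49.7 and 61.0 CPM in the mid libraries. These ranges overlapped, with a log2 fold change of 0.14 (SE 0.12, adjusted p = 0.475, edgeR). It was called higher in high at 0.42 (adjusted p = 0.00519, edgeR) with loess offsets on the mean level, and fell to 0.033 without the pair of replicate 2. Region 4, a narrow region of 514 bp between the called ones, had a fitted value on the other side, -0.73 with a standard error of 0.33 (adjusted p = 0.136, edgeR), from 17 to 22 counts in the high libraries and 29 to 58 in the mid libraries. Region 1 was at 0.03.

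KIT, the receptor for KIT ligand, held the region called higher in the mid population. Region 1 of the window (chr4:55515762-55516548, 787 bp) had 1.37, 1.35 and 1.56 CPM in high replicates 1, 2 and 3, and 4.62, 3.38 and 1.92 CPM in mid replicates 1, 2 and 3. All mid libraries were above all high libraries, although mid replicate 3 stood close to the high range. The log2 fold change was -1.11 with a standard error of 0.27 (2.16-fold higher in mid, adjusted p = 0.00374, edgeR's quasi-likelihood test), the largest of the 50 in size. It rested on few reads, 24, 22 and 42 counts against 123, 78 and 50.

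The KIT call was lost when either of the first 2 pairs was left out. Without the pair of replicate 1 the log2 fold change was -0.80 (adjusted p = 0.0910, edgeR), and without that of replicate 2 the adjusted p was 0.0873. Without the replicate block it was 0.0276. The region lay 8.5 kb from the most-read region of the window (chr4:55522835-55526399, 3565 bp), which had 40.7, 36.3 and 36.3 CPM in the high libraries and 39.9, 41.6 and 39.6 CPM in the mid libraries. The groups overlapped there, with a log2 fold change of -0.10 (SE 0.12, adjusted p = 0.651, edgeR). Its other 4 regions had fold changes of -0.38 to 0.11.

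KLF4, one of the reprogramming factors, had a region whose call depended on the processing. Region 3 (chr9:110234772-110235672, 901 bp) had 3.02, 2.65 and 2.52 CPM in the high libraries and 3.87, 4.72 and 5.40 CPM in the mid libraries. All mid libraries were above all high libraries, and the log2 fold change was -0.77 with a standard error of 0.22 (1.71-fold higher in mid, adjusted p = 0.0113, edgeR's quasi-likelihood test). It was called in 6 of the 18 alternatives that gave an adjusted p, some of which nearly repeat each other. With the pair of replicate 1 left out, edgeR's adjusted p was 0.00135, whereas without the pair of replicate 2 or 3 it was 0.151 or 0.135. The wide most-read region (chr9:110247822-110254669), 16.0 kb away, had 95.6, 69.8 and 74.6 CPM against 106, 91.6 and 80.4 CPM. Each mid library exceeded its high partner there while the groups overlapped, and the log2 fold change was -0.21 (SE 0.11, adjusted p = 0.213, edgeR). Regions 1 and 2 were at 0.19 and 0.14.

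**Figure D2:**
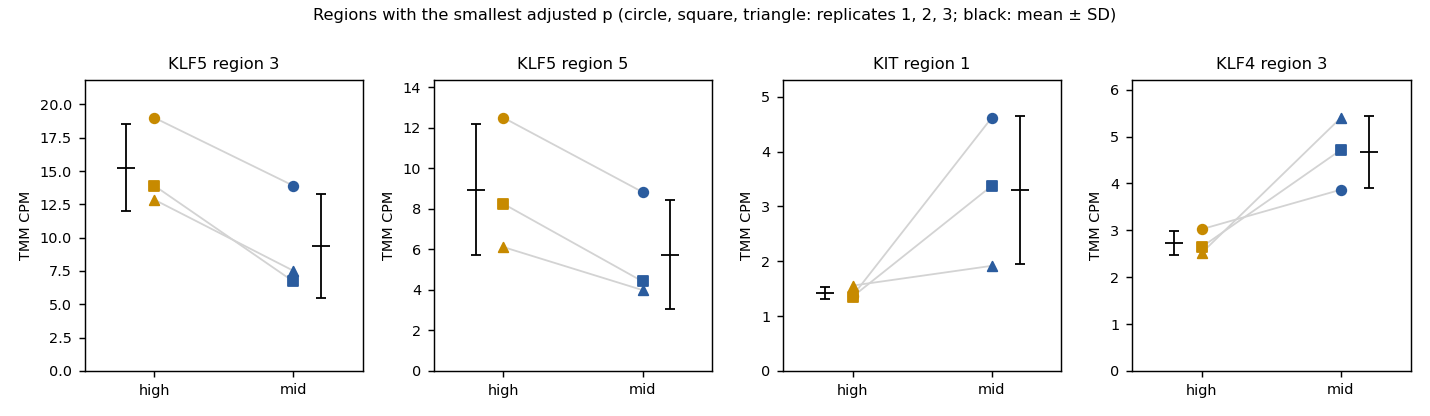
TMM CPM of the 4 member regions with an adjusted p under 0.05 in each of the 6 libraries, with symbols for replicates 1, 2 and 3 and black marks for mean and SD. In the KLF5 regions replicate 1 is the highest of each population and every pair falls from high to mid, whereas in KLF4 region 3 and KIT region 1 all mid libraries lie above all high ones.

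TFCP2L1, a factor of the naive network, had fitted values above zero in 7 of its 8 regions, with a median log2 fold change of 0.21, and none was called. Of all regions, 53.5% were above zero. The regions of this window were narrow, with a median width of 717 bp. Over all regions of like width (median 735 bp) the median log2 fold change was 0.12. The most-read region (chr2:122041047-122043407) had 20.3, 21.4 and 20.2 CPM in the high libraries and 16.3, 18.5 and 17.5 CPM in the mid libraries. The groups did not overlap, and the log2 fold change was 0.25 (SE 0.14, adjusted p = 0.251, edgeR). Region 5 (chr2:122021755-122022430) had the smallest p of the window, with 3.31, 2.52 and 2.56 CPM against 1.65, 2.34 and 1.99 CPM. Its groups did not overlap either, and the log2 fold change was 0.49 (SE 0.26, adjusted p = 0.204, edgeR). It was 0.22 without the pair of replicate 1 and 0.67 without that of replicate 2.

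ESRRB, an orphan nuclear receptor, was evenly divided, with 6 regions fitted above zero and 6 below it, a median of 0.00 and no call. The most-read region (chr14:76818470-76819792) had 8.90, 9.47 and 13.0 CPM in the high libraries and 11.2, 10.4 and 9.77 CPM in the mid libraries, so that high replicate 3 was the highest and high replicate 1 the lowest of all. Its adjusted p was 0.990 (edgeR). Region 11 (chr14:76963899-76964609) had 3.08, 1.60 and 2.0 CPM against 3.08, 2.90 and 3.33 CPM. Its log2 fold change was -0.51 (SE 0.25, adjusted p = 0.163, edgeR), and the first pair of libraries was at the same level.

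KLF17, a factor expressed in human naive cells and embryos, had 3 regions, all fitted below zero and none called. Region 1 (chr1:44568768-44569804) had 4.85, 4.98 and 6.89 CPM in the high libraries and 5.56, 5.71 and 5.90 CPM in the mid libraries. Region 2 (chr1:44585142-44585748) had 1.14, 2.65 and 1.67 CPM against 1.77, 2.94 and 2.41 CPM. Region 3 (chr1:44615809-44616833) had 3.82, 4.31 and 4.19 CPM against 6.65, 3.38 and 4.06 CPM. The populations overlapped in all 3, the log2 fold changes being -0.04, -0.42 and -0.15 with standard errors of 0.19, 0.27 and 0.21 (adjusted p = 0.907, 0.315 and 0.685, edgeR).

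PRDM14, which acts both in pluripotent cells and in primordial germ cells, was the most-read window and had 4 regions fitted on each side of zero, none called. Its most-read region (chr8:70980923-70985421, 4499 bp) had 63.2, 65.4 and 70.7 CPM in the high libraries and 69.5, 51.8 and 53.6 CPM in the mid libraries. Pairs 2 and 3 were higher in high and pair 1 was not, with a log2 fold change of 0.20 (SE 0.12, adjusted p = 0.286, edgeR). Region 2 (chr8:70946385-70948213) had 16.3, 15 and 15.4 CPM against 18.9, 20.5 and 17.4 CPM. Here all mid libraries were above all high libraries, and the log2 fold change was -0.28 (SE 0.15, adjusted p = 0.206, edgeR). The adjacent region 1 had non-overlapping groups in the opposite direction, at 0.26 (adjusted p = 0.313, edgeR).

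PRDM1, the repressor known as BLIMP1 that directs primordial germ cell specification, had 3 regions and no call. Region 1 (chr6:106532221-106534812) had 19.5, 15.2 and 14.8 CPM in the high libraries and 16.7, 13.2 and 16.5 CPM in the mid libraries. Region 2 (chr6:106535225-106536484) had 6.96, 5.66 and 7.82 CPM against 8.15, 8.22 and 7.90 CPM. Region 3 (chr6:106545426-106547547) had 13.8, 9.84 and 12 CPM against 13.7, 14.3 and 13.0 CPM. Only in region 2 were the groups apart, by a narrow margin, and the log2 fold changes were 0.09, -0.25 and -0.21 (SE 0.15, 0.18 and 0.16, adjusted p = 0.747, 0.377 and 0.412, edgeR).

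DPPA3 had a single weak region (chr12:7868884-7869490, 607 bp), read 24, 33 and 76 times in the high libraries and 113, 50 and 38 times in the mid libraries. This was 1.37, 2.03 and 2.81 CPM against 4.24, 2.16 and 1.46 CPM. The first pair was higher in mid, the second was near equal and the third was higher in high, with log2 ratios of -1.56, -0.09 and 0.91. The fitted value of -0.23 (SE 0.29, adjusted p = 0.648, edgeR) turned with the library left out, from -0.88 to 0.46.

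Summed over its regions, no window was called in edgeR's test or in DESeq2, which gave DPPA3 no adjusted p, and 1, KLF5, had an unadjusted p under 0.05. PRDM14 had the highest sum, 135 ± 3.19 CPM (SD, n = 3) in the high and 131 ± 10.9 CPM in the mid population, and DPPA3 the lowest, 2.07 ± 0.724 and 2.62 ± 1.45 CPM. KLF5 had 113, 91.7 and 83.3 CPM in the high libraries and 101, 67.1 and 77.3 CPM in the mid libraries. All pairs were higher in high, and the log2 fold change of 0.24 (SE 0.11) had the smallest adjusted p of the 9, 0.161 in edgeR's test. Without the pair of replicate 2 it was 0.13 (adjusted p = 0.789, edgeR). TFCP2L1 had 50.4, 51.1 and 46.5 CPM against 41.3, 44.9 and 41.4 CPM, and was the only window whose sums did not overlap, at 0.21 (SE 0.12, adjusted p = 0.248, edgeR).

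The sums of KLF4 and KIT were lower in the high library of every pair, though the groups overlapped. KLF4 had 99.4 ± 14.4 CPM in the high and 113 ± 14.1 CPM in the mid population, which gave -0.18 on the log2 scale (SE 0.11, adjusted p = 0.291, edgeR). KIT had 48.2 ± 3.01 and 53.9 ± 3.54 CPM, at -0.16 (SE 0.12, adjusted p = 0.400, edgeR). The remaining sums had log2 fold changes of -0.16 at KLF17, -0.06 at ESRRB, 0.05 at PRDM14, -0.23 at DPPA3 and -0.09 at PRDM1, each within 1 standard error of zero. With loess offsets on region width, the KLF4 sum turned to 0.19 and the KIT sum to 0.04, neither called, and the KLF5 sum was called at 0.40 (adjusted p = 0.0067, edgeR).

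**Figure D3:**
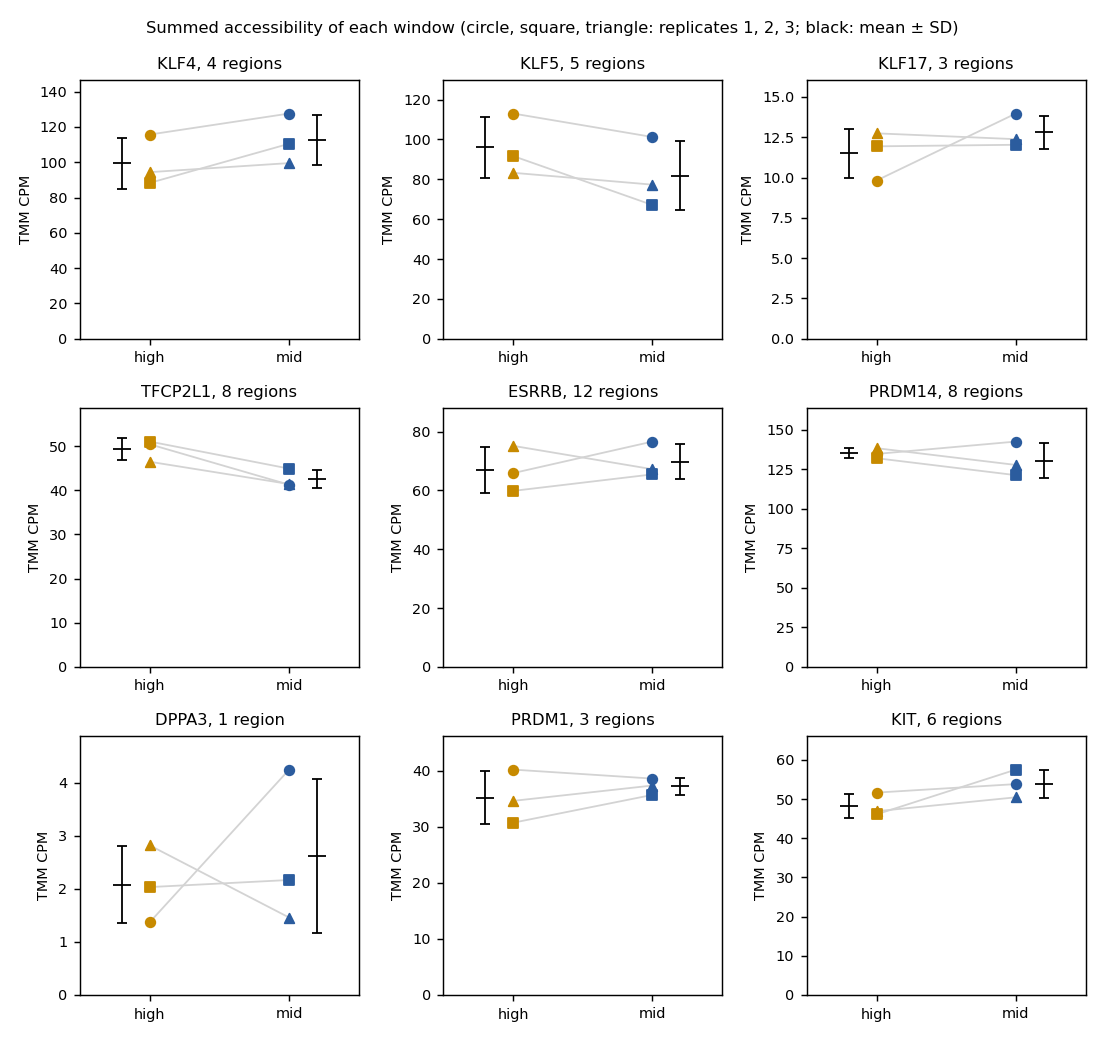
Summed TMM CPM of the member regions of each of the 9 windows in the 6 libraries, with symbols for replicates 1, 2 and 3 and black marks for mean and SD. The populations are apart at TFCP2L1 and overlap in the other windows, and no sum was called.

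Across the whole table the change varied with region width, and the members were read against regions of like width. Of all regions of at least 2000 bp, 14039 in number, 20.7% were called higher in mid and 1.93% higher in high, with a median log2 fold change of -0.22 and 27.8% above zero. The 8 member regions of that width had no call, 4 values above zero and a median of -0.01, from -0.22 to 0.25. They were the most-read regions of KLF4, KLF5, TFCP2L1, PRDM14, PRDM1 and KIT, with ESRRB region 5 and PRDM1 region 3. The 42 narrower members had a median of 0.01, beside 0.07 for all narrower regions. With loess offsets on region width, the most-read PRDM14 region was called higher in high at 0.53 (adjusted p = 0.000544, edgeR), and those of KLF4 and KIT turned to 0.24 and 0.17 without a call. No test was made of the members against regions of their width.

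Other naive and germline genes were taken from lists chosen with earlier results of these data known, and their values are given beside those above. Of 23 regions in 6 further naive windows (ZFP42, DPPA2 with DPPA4, DPPA5, TBX3, DNMT3L and TFAP2C), 6 were called higher in mid and none higher in high by edgeR (11 and 1 at an unadjusted p under 0.05), with a median log2 fold change of -0.37. Over all regions these shares were 3.77% and 2.32% (13.6% and 14.2% unadjusted) and the median was 0.03, but these naive regions were wider, with a median width of 1602 bp against 879 bp. Of all regions of at least 2000 bp, 20.7% were called higher in mid. The called regions of TFAP2C and DNMT3L were of that width, as were regions 1 and 5 of TBX3. Of the 6 called naive regions, 4 lay at TBX3, a T-box factor. All 7 regions there had every mid library above every high library. This held in 13.0% of all regions, and in 5771 of the 14039 regions of at least 2000 bp. The single TFAP2C region, at a gene needed in both naive and germ cells, had 31.4, 33.3 and 35.2 CPM in the high libraries and 55.9, 51.5 and 44.6 CPM in the mid libraries, and fell by 0.60 on the log2 scale from mid to high (SE 0.13, adjusted p = 0.000736, edgeR). The sixth was region 1 of DNMT3L, at -0.61 (adjusted p = 0.000525, edgeR).

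Of 12 regions in 4 further germline windows (SOX17, NANOS3, KITLG and DDX4), 1 was called higher in mid and none higher in high by edgeR (3 and 2 at an unadjusted p under 0.05), beside the same shares over all regions, with a median log2 fold change of -0.07 and a median width of 1327.5 bp. The called one was region 2 of NANOS3, a germ cell RNA-binding protein, at -0.71 (adjusted p = 0.000419, edgeR). It was 2818 bp wide, and 20.7% of all regions of at least 2000 bp were called higher in mid. KITLG encodes the ligand of KIT, and all 5 of its regions were higher in the high library of every pair (25.3% of all regions). Its regions 1 to 4 were 673 to 954 bp wide, and over all regions of like width the median log2 fold changes were 0.08 to 0.14. The widest KITLG region had 64.0, 50.1 and 51.5 CPM against 45.2, 37.4 and 45.3 CPM. These groups did not overlap, and the log2 fold change was 0.37 (adjusted p = 0.0357, edgeR). The smallest adjusted p of the KIT window was on the mid side, in a region with 4.6% of that window's mean CPM. The most-read KIT region was at -0.10 and was not called. The windows of receptor and ligand were not tested against each other.

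**Figure D4:**
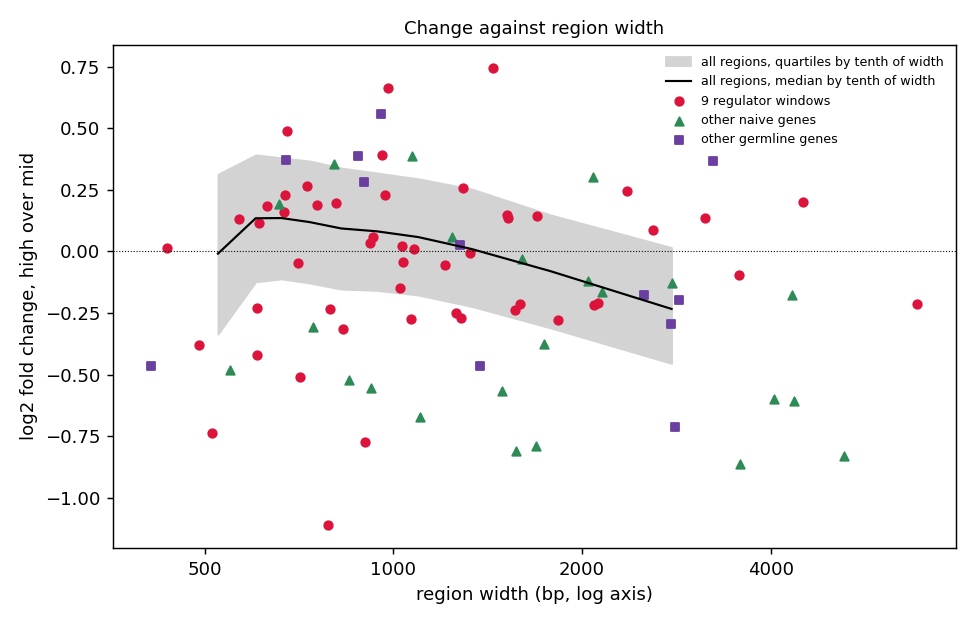
Log2 fold change, high over mid, against region width on a log axis for the regions of the 9 windows and of the other naive and germline windows, over the median and quartiles of all regions in 10 classes of width. Member regions of at least 2000 bp lie between -0.22 and 0.25. Of the 35 regions of the other genes, which are of any width, 7 were called on the mid side. The share so called was 3.77% of all regions and 20.7% of all regions of at least 2000 bp. Those genes were chosen with earlier results of these data known.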

How the data were processed

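The authors supplied 1 table of read counts over a shared set of regions, which joins what MACS found in the pooled reads of either population, less the ENCODE blacklist. Reads had been trimmed (Trimmomatic), mapped to hg19 (BWA), freed of PCR duplicates (Picard) and offset for the Tn5 insertion, and bedtools gave the counts. The submitters' processing notes give BWA 0.7.15, SAMtools 0.1.19 and MACS 1.4.2. The table was deposited as raw, unnormalized counts. Since calling used pooled reads, whether a region was called in each replicate is unknown, and wide merged regions collect more reads. Starts are printed 1 higher than deposited, since the table was read as counting from 0.

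Counts of all 118556 regions were tested with edgeR 4.0.16 under R 4.3.3, using TMM factors, the quasi-likelihood test, the replicate number as a block and no filter on low counts. Benjamini-Hochberg adjustment ran over all of them. Regions under 0.01 were called. The standard error was the absolute log2 fold change divided by the square root of F. For window sums, the member regions of a gene were added to 1 value and the whole table was refitted. Loess offsets (span 0.3) used limma 3.58.1, and DESeq2 1.42.0 was an alternative. Replicate numbers come from the sample titles, and the labels name no batch. Deviations from the group means correlated across regions at 0.31, 0.20 and 0.23 between samples of the same number, and at -0.26 to 0.06 between samples of different numbers, so the numbers were taken to pair the samples. The fit was tested on simulated counts of the same table, with 200 regions given a log2 fold change of 1 in size. It called 96 of these 200 at an adjusted p under 0.01, with 0 false calls. In that setting many changes of that size went uncalled. The simulation changed fewer regions than the 7219 called in the data, which makes its adjustment stricter, and held no replicate effect. Its shares of recovered and false calls therefore do not carry over to the data.

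All 50 member regions passed a filter of more than 1 CPM in 3 samples, which left 118442 regions. Their total counts over the 6 libraries ran from 183 to 11855. A share of counts had a 95% Wilson interval of 0.0528% to 0.0551% in the smallest library, which covers counting error only, since amplified reads are not independent molecules. Regions named with values were each called region, the most-read region and the region with the smallest p of each window, and all regions of windows holding 3 or fewer. Neighbours and companions named beside them were chosen after their values were seen. The windows, gene lists and tests were chosen with earlier results of these data known. The windows of the other genes were set from general knowledge of hg19 gene positions. No hg19 gene annotation was used here, so regions are not called exonic or intronic. The RNA and methylation experiments of the study were not analysed here.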

Additional observations from a re-analysis of the deposited data

How the results depend on the processing

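Leaving out 1 pair or 1 library gave 0 to 2 member regions called higher in high and 0 to 1 higher in mid, beside 2 and 1. Without the replicate block, 0 and 0 were called, and ESRRB region 2 turned to 0.011. Leaving out the block turned no window sum and no other named region. DESeq2 called 1 and 0, giving no adjusted p for 6 named regions, KIT region 1 and that of DPPA3 among them. With a batch of 2 levels, or with RLE size factors, 1 was called higher in high, and with a batch of 2 levels ESRRB region 2 was at 0.0079. Total counts only called 0 higher in mid, and 2 were called so by the likelihood ratio test, by loess offsets on average log2 CPM, by loess offsets on region width and under a threshold of 0.05. Counting any overlap with a window added 1 KLF17 region and left both counts as they were.

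Log2 fold changes of window sums, high over mid, turned in direction or passed the threshold as follows. With loess offsets on average log2 CPM, the KLF4 sum was 0.094 and the KLF5 sum 0.44 (called, edgeR adjusted p = 0.00248). With those on region width, the sums were 0.19 for KLF4, 0.40 for KLF5 (called), 0.032 for PRDM1 and 0.038 for KIT. With total counts only, they were 0.031 for ESRRB and 0.0037 for PRDM1, and the median of all regions moved from 0.03 to 0.12. Leaving out libraries took KLF17 from -0.26 to 0.016, ESRRB from -0.17 to 0.019 and DPPA3 from -0.88 to 0.46. In all, 157 of 170 sums and alternatives kept direction and side of the threshold. With the block, a library whose partner was left out adds little, so leaving out 1 library nearly repeated leaving out its pair. Tallies of alternatives, for sums and for named regions, thus count like fits more than once.

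Among named regions, loess offsets on average log2 CPM and on width turned KLF4 region 4 to 0.12 and 0.24 and KIT region 2 to 0.12 and 0.17, and the former turned ESRRB region 2 to 0.012. Total counts only turned KLF17 region 1 to 0.046 and ESRRB region 2 to 0.087. Leaving out libraries spanned -0.20 to 0.033 for KLF17 region 1, -0.37 to 0.18 for KLF17 region 3, -0.23 to 0.16 for ESRRB region 2, -0.88 to 0.46 for DPPA3 and -0.010 to 0.22 for PRDM1 region 1. Of 374 values of named regions, 312 kept direction and side. Calls were gained by KLF4 region 3 (6 alternatives), KLF5 region 2 (loess offsets on average log2 CPM) and PRDM14 region 4 (both loess fits). The causes were not tested.

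Over all regions, 2747 were called higher in high and 4472 in mid. These counts were 280 and 1312 without the block, 371 and 438 without the pair of replicate 2, 990 and 3776 with DESeq2, 4971 and 3179 with total counts only, 3770 and 3123 with loess offsets on average log2 CPM and 3245 and 2887 with those on region width. KIT region 1 (SE 0.27) and DPPA3 (SE 0.29) rest on under 130 counts in each library, which limits their precision. The same holds for KLF5 region 4 (SE 0.33), KLF17 region 2 (SE 0.27), TFCP2L1 region 5 (SE 0.26) and ESRRB region 11 (SE 0.25).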
